A study of Caenorhabditis elegans and Caenorhabditis briggsae with 26 samples.

Results

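The genes described here are 100 C. elegans genes, each paired with its C. briggsae ortholog, whose transcripts were ranked by how far late L4 stood above every other collected stage in both nematodes. Late L4 is the end of the last larval stage, just before the molt to the adult. The members were chosen by their measured levels in the deposited RPKM table, which scales reads by gene length and by the mapped reads of a library. RPKM was taken to log2(RPKM + 1) and averaged over the libraries of a stage, and the score of a gene in a species is its late L4 level minus its highest level among the other 6 stages. The pair score is the lower of the scores in the 2 species. Of 21774 gene IDs in the table, 13813 had C. briggsae values of their own, and 6877 of these reached 5 RPKM at late L4 in both species. The 100 highest pair scores among those 6877 pairs are the members. Only 68 of the 100 had a pair score above 0, so in the other 32 late L4 was not the highest stage in at least 1 species.

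Poly(A)-selected RNA of the wild-type strains N2 (C. elegans) and AF16 (C. briggsae), grown at 20 °C in liquid culture, was sequenced in 13 libraries per species. The 7 stages were mixed embryos, the first 3 larval stages (L1 to L3), early and late L4, and young adults before they carried eggs. A mixed stages reference, called the mixture here, was sequenced as well. Larvae hatched without food into arrest, and the 6 stages from L1 to young adult were taken 7, 20, 29, 41, 52 and 57 h after feeding in C. elegans. The hours were 6, 20, 28, 41, 53 and 63 in C. briggsae. Embryos and L1 had 3 libraries from 2 cultures, of which A1 and A2 came from culture A and B from a second time course. The stages from L2 to young adult had 1 library each, and the mixture had 2 libraries of the same sample. The spread of A1 and A2 may therefore be technical, and a level at late L4 has no replicate within a species. Both strains are unmodified and self-fertile, whole worms were used, and in such bulk RNA fewer cells of a type and less RNA per cell cannot be told apart.

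The nematode cuticle is a matrix of collagens that the epidermis secretes anew before each molt. At the last molt the larva lays down the adult cuticle, whose layers are joined by struts built with collagens such as BLI-1 and BLI-2, and LIN-29, the zinc finger factor at the end of the heterochronic pathway, sets that switch in the epidermis. Feeding larvae also keep a large intestine supplied with proteases, lysozymes and lectins, and L4 is the stage at which C. elegans hermaphrodite germ cells form sperm.

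As a check of the stage labels, col-19, a collagen of the C. elegans adult cuticle, had 1950 RPKM in young adults and 0.205 RPKM at late L4 of C. elegans, and 1617 RPKM in young adults and 55.7 RPKM at late L4 of C. briggsae. The collagen gene col-7 had 72.7 RPKM in young adults and 0.591 RPKM at late L4 of C. elegans. In C. briggsae it went the other way, with 233 RPKM in young adults and 3887 RPKM at late L4. Both genes were singled out after their values were seen, and they differ in C. briggsae, so the check is not clear there. Replicate libraries of the early stages did not match equally well. In C. briggsae, embryo culture A exceeded culture B by at least 2-fold in 30 of the 100 genes, against 9.7% of the 6877 pairs, and the opposite held in 2 genes. In C. elegans, culture A exceeded culture B by as much in 2 genes and fell short of it in 2. C. elegans embryo library A1 differed from A2 by a median of 0.36 on the log2 scale over the members, against 0.45 over the 6877 pairs.

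Pair scores ran from 2.31 to -0.07 with a median of 0.05 on the log2 scale. They reached 1 in 5 genes, which were btbz-2, bli-1, D1086.3, dmd-8 and fkh-6, and 0.5 in 9 genes. The score was above 0 in 78 members in C. elegans and in 85 in C. briggsae. For scale, cultures A and B of L1 differed by up to 0.75 in C. elegans and 0.67 in C. briggsae at the 90th percentile of the members, and 6 members exceeded that in both species. Just inside the limit stood sur-7 (-0.07), zig-2 (-0.07), T28C6.9 (-0.07) and maph-1.1 (-0.07), and just outside it Y67H2A.7 (-0.08), Y65B4A.8 (-0.08), spg-7 (-0.08) and irg-8 (-0.08). The order near the limit therefore rests on differences far smaller than the spread between cultures.

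**Figure D1:**
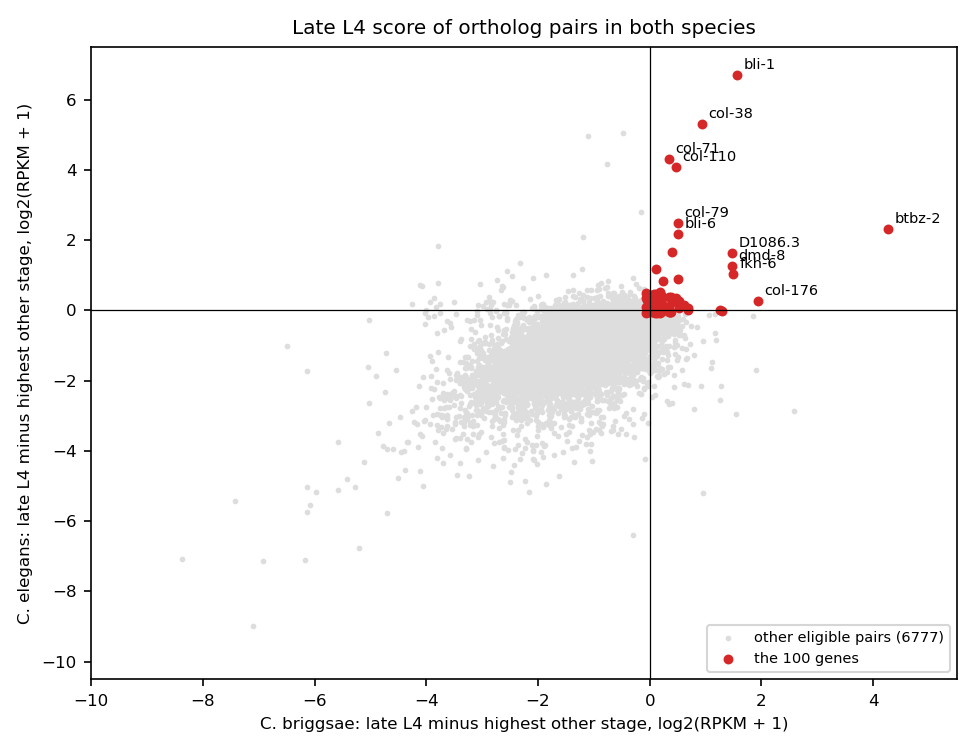
Score of each ortholog pair, as late L4 minus the highest other stage on the log2(RPKM + 1) scale, in C. elegans (vertical axis) and C. briggsae (horizontal axis). Red points are the 100 genes and grey points the other 6777 pairs with at least 5 RPKM at late L4 in both species; most red points lie near the origin, and the collagens rise along the C. elegans axis.

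Beside the few genes with a sharp peak, most members were abundant larval transcripts with a broad maximum. At late L4 the members had a median of 105 RPKM in C. elegans (5.97 to 5128) and 63.1 RPKM in C. briggsae (5.92 to 3029), against 22.2 and 20.5 RPKM for the 6877 pairs in the same species. Their summed share of all RPKM in C. elegans was 0.66 to 0.68% in embryos, 2.04 to 2.56% in L1, 2.23% in L2, 2.43% in L3, 3.45% in early L4, 4.50% at late L4 and 1.92% in young adults. In C. briggsae the share was 0.56 to 0.61% in embryos, 2.01 to 2.18% in L1, 2.03% in L2, 2.65% in L3, 2.24% in early L4, 3.5% at late L4 and 1.78% in young adults.

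The approach to late L4 differed between the species. The next highest stage was early L4 in 51 members in C. elegans and in 26 in C. briggsae, and it was L3 in 15 members in C. elegans and in 33 in C. briggsae. Early L4 stood above L3 in 72 members in C. elegans, where 61.6% of the 6877 pairs did so, and in 42 members in C. briggsae, where 53.9% did so. These are single libraries per stage, so the difference between the species was not tested. Embryos were the next highest stage in only 3 members of each species, against 39% and 42.5% of the 6877 pairs in C. elegans and C. briggsae, which the rule itself fixes in part.

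**Figure D2:**
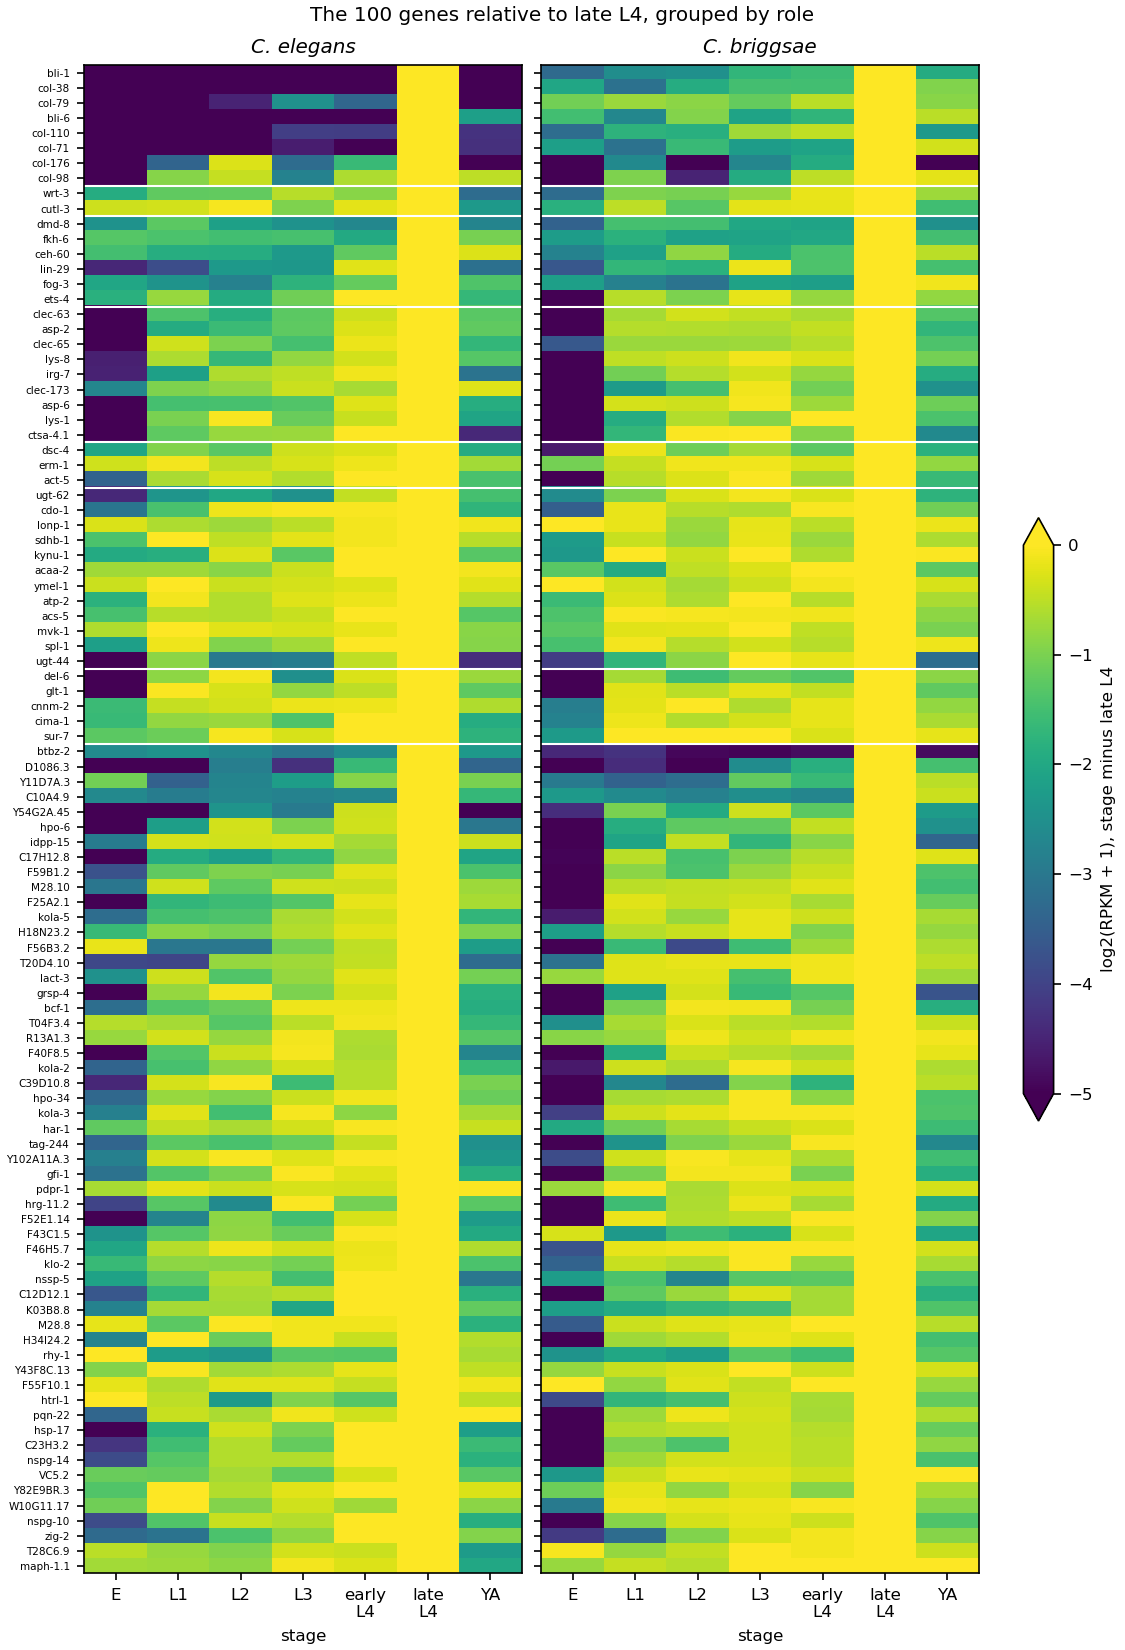
Level of each of the 100 genes at each of the 7 stages minus its late L4 level, on the log2(RPKM + 1) scale, in C. elegans (left) and C. briggsae (right). White lines part the role groups, from cuticle collagens at the top to unassigned genes at the bottom; the deep C. elegans troughs around late L4 belong to the first 6 collagens, and embryos are low in most rows.

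Sorted by known function, the members held 8 cuticle collagens, 2 other matrix genes, 6 regulators, 9 digestive and antimicrobial genes, 3 genes of the intestinal brush border and lipoprotein assembly, 12 mitochondrial and metabolic enzymes and 5 transporters and channels. The other 55 had no assignment here. These groups were drawn up by hand with the values known. By chromosome, 21 of the 98 members with a position lay on X, where 13.1% of the 6819 eligible pairs with a position lay, and 6 on chromosome I, where 18.7% lay. The median summed exon length was 1519 bases for these 98 members and 1537 bases for the 6819 pairs.

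The cuticle collagens included the sharpest C. elegans peaks, with scores of 6.69 for bli-1 and 5.31 for col-38, and all 8 had pair scores above 0. Their scores had a median of 3.28 in C. elegans (0.27 to 6.69) and of 0.51 in C. briggsae (0.21 to 1.93). Of the 177 collagen genes in the table, 71 reached 5 RPKM at late L4 in both species, so 63 of those 71 are no members. Beside bli-1 and bli-6, named for the blistered cuticle of their mutants, the members were col-38, col-71, col-79, col-98, col-110 and col-176.

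The strut collagen gene bli-1 (chromosome II, 10708960 to 10712156) was nearly absent from C. elegans until late L4. Its C. elegans libraries held 0.306, 0.138 and 0.515 RPKM in embryos, 0.156, 0.0651 and 0.0992 in L1, 0.837 in L2, 0.314 in L3, 0.701 in early L4, 189 at late L4 and 0.794 in young adults. In C. briggsae the libraries held 0.263, 0.279 and 0.221 RPKM in embryos, 1.04, 0.815 and 1.41 in L1, 1.14 in L2, 2.69 in L3, 3.09 in early L4, 11.1 at late L4 and 2.17 in young adults. The C. elegans level was thus confined to the late L4 library among these stages, while the C. briggsae level climbed over several stages to a lower maximum. Its neighbour col-79 lies 4388 bases away on the same strand and reached 58.1 RPKM in C. elegans and 6.08 RPKM in C. briggsae at late L4.

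For bli-6 (chromosome IV, 6377065 to 6378168), C. elegans had 0.218, 0.0748 and 0.225 RPKM in embryos, 1.26, 0.114 and 0.0819 in L1, 2.16 in L2, 0.635 in L3, 0.531 in early L4, 297 at late L4 and 65.1 in young adults. C. briggsae had 4.42, 5.32 and 5.94 RPKM in embryos, 2.35, 1.63 and 1.31 in L1, 8.32 in L2, 3.14 in L3, 4.32 in early L4, 16.6 at late L4 and 11.4 in young adults. Here the young adult library was the next highest in both species. The gene col-38 (chromosome II, 8568035 to 8569088) had 376 RPKM at late L4 in C. elegans, where no other stage library exceeded 8.51, and 34.9 RPKM at late L4 in C. briggsae, where no other stage library exceeded 17.7. Likewise col-71 had 170 RPKM at late L4 in C. elegans and 12.1 RPKM at late L4 in C. briggsae, and col-110 had 104 and 10.6 RPKM in the same order. The gene col-110 overlaps the member nspg-10 by 16 bases on the opposite strand, and since the strand used in counting is not stated, their reads cannot be told apart there.

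The mixed stages reference, which played no part in choosing the members, held more of 5 of the 8 collagens than any C. briggsae stage. In the 2 C. briggsae reference libraries col-71 had 134 and 67.4 RPKM, against 12.1 RPKM at late L4. There bli-6 had 123 and 59.1 RPKM, against 16.6 RPKM at late L4, and col-38 had 190 and 127 RPKM, against 34.9 RPKM at late L4. Both reference libraries thus lay above the highest of the 7 collected C. briggsae stages, whereas a mixture of those 7 samples alone would lie between their lowest and highest levels. The mean of the reference libraries on the log scale was 7.33 times the late L4 level for col-71, 4.9 times for bli-6, 4.35 times for col-38, 1.78 times for bli-1 and 1.75 times for col-79. Both C. briggsae reference libraries exceeded every stage in these 5 of 8 collagens and in D1086.3, Y54G2A.45 and C17H12.8, which made 8 of the 100 members, against 1.06% of the 6877 pairs. In C. elegans no member did so, against 8.32% of the pairs: bli-6 had 97.4 and 62.7 RPKM in the mixture against 297 RPKM at late L4, and col-38 had 84.3 and 59.3 RPKM against 376 RPKM. Which stages or ages the mixture held, and how it was made, is not given beyond its label of mixed stages, and the reason was not tested. The C. briggsae late L4 value of these collagens is therefore the highest of the collected stages and not the highest level measured in the species.

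**Figure D3:**
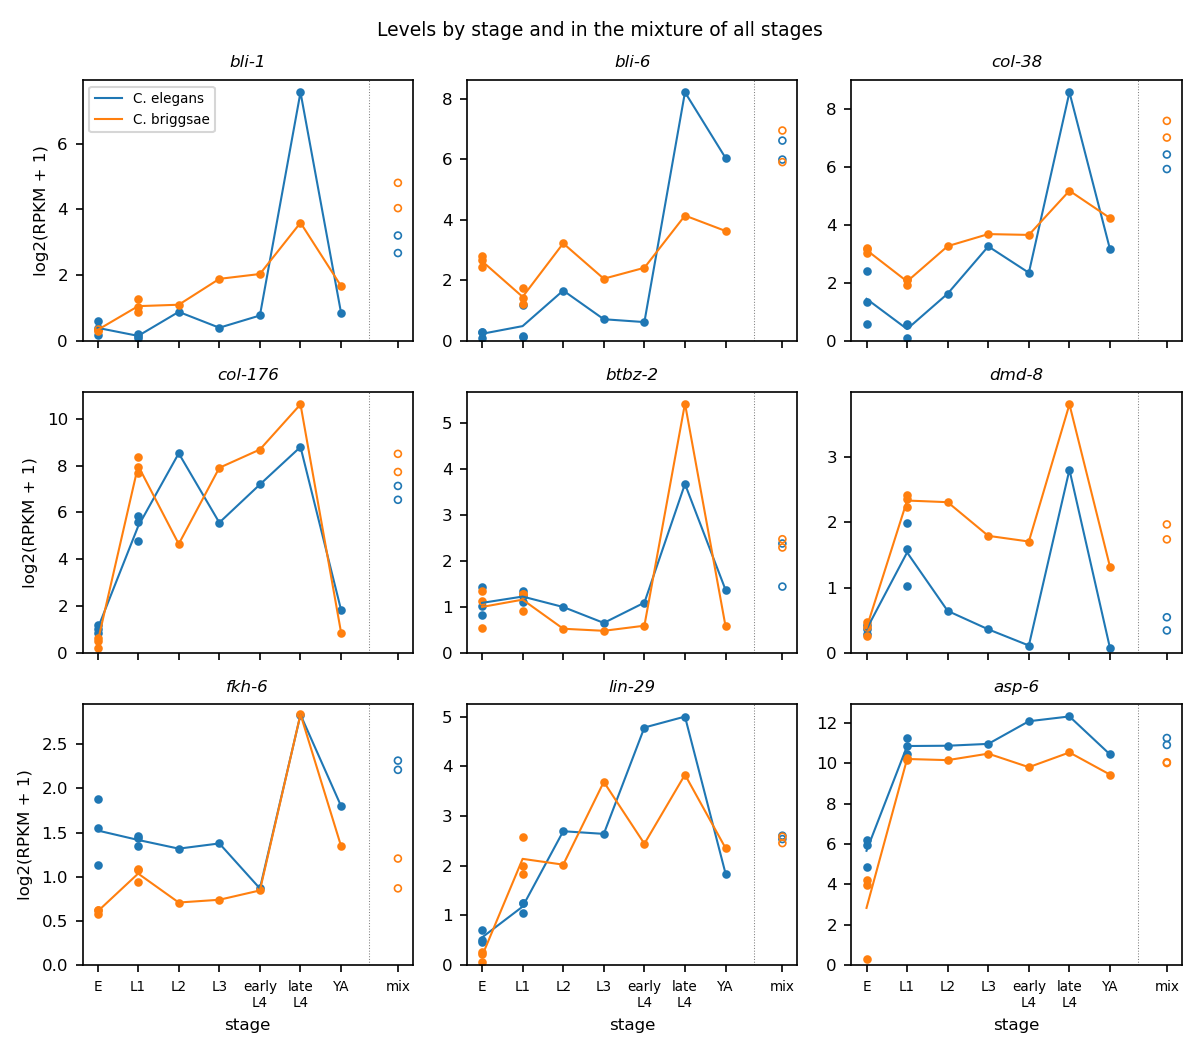
Levels of 9 members as log2(RPKM + 1) at each stage and, right of the dotted line, in the mixed stages reference (open circles). Points are libraries and lines join stage means, blue for C. elegans and orange for C. briggsae; the open orange circles of bli-1, bli-6 and col-38 lie above every orange stage point, and the open blue ones below the blue late L4 point.

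Of the 8 member collagens, col-176 and col-98 had the highest late L4 levels in both species, and neither was confined to late L4. In C. elegans col-176 had 1.05, 0.793 and 1.28 RPKM in embryos, 47.6, 26.5 and 56 in L1, 367 in L2, 46.3 in L3, 145 in early L4, 443 at late L4 and 2.55 in young adults. In C. briggsae it had 0.421, 0.537 and 0.152 RPKM in embryos, 331, 243 and 203 in L1, 24.1 in L2, 239 in L3, 411 in early L4, 1568 at late L4 and 0.818 in young adults. L2 was thus nearly as high as late L4 in C. elegans and low in C. briggsae, at the same 20 h after feeding. The level of col-98 likewise dipped at L3 in C. elegans (153 RPKM, with 781 at L2) and at L2 in C. briggsae (41.9 RPKM, with 257 at L3). It was 1064 RPKM at late L4 in C. elegans and 977 RPKM at late L4 in C. briggsae.

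One gene of the same structures failed the rule. The strut collagen gene bli-2, singled out after its values were seen, had 305 RPKM at late L4 in C. elegans, where its score was 4.97. The C. briggsae ortholog had 9.55 RPKM at late L4 and 21.7 RPKM in embryos, a score of -1.1, and its pair score ranked 2547. Among other matrix genes, the hedgehog-related wrt-3 had 15.9 RPKM at late L4 in C. elegans and 12.4 RPKM at late L4 in C. briggsae, and the cuticlin-like cutl-3 had 9.37 and 8.59 RPKM in the same order. None of the 17 collagen maturation enzymes or the 40 molting regulators and effectors in the table was a member, and only 10 and 18 of them reached 5 RPKM at late L4 in both species. Members were 100 of all 6877 such pairs, and at that share sets this small would hold few or none.

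Of the 6 regulators, 5 had a pair score above 0, and the other was ets-4, with a C. elegans score of -0.05. The gene dmd-8 (chromosome V, 334601 to 336450), which encodes a DM-domain factor of the family that acts in sexual development, had 0.35, 0.286 and 0.216 RPKM in C. elegans embryos, 2.02, 2.99 and 1.04 in L1, 0.561 in L2, 0.283 in L3, 0.0807 in early L4, 5.99 at late L4 and 0.0492 in young adults. The C. briggsae libraries held 0.317, 0.392 and 0.202 RPKM in embryos, 4.12, 3.68 and 4.34 in L1, 3.95 in L2, 2.46 in L3, 2.26 in early L4, 13 at late L4 and 1.49 in young adults. L1 was the next highest stage in both species. The forkhead gene fkh-6 (chromosome II, 4379585 to 4383406), which acts in C. elegans in the somatic gonad, had 6.13 RPKM at late L4 in C. elegans, where the other stage libraries ran up to 2.68. It had 6.15 RPKM at late L4 in C. briggsae, where they ran up to 1.54.

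The heterochronic gene lin-29 (chromosome II, 11917642 to 11935343) had 0.379, 0.414 and 0.624 RPKM in C. elegans embryos, 1.38, 1.06 and 1.36 in L1, 5.47 in L2, 5.24 in L3, 26.5 in early L4, 31.1 at late L4 and 2.58 in young adults. Its C. briggsae ortholog had 0.198, 0.163 and 0.0461 RPKM in embryos, 2.99, 2.58 and 4.96 in L1, 3.06 in L2, 11.9 in L3, 4.43 in early L4, 13.2 at late L4 and 4.11 in young adults. It was therefore high through both L4 libraries of C. elegans, but at L3 and late L4 with a lower early L4 between them in C. briggsae. The gene fog-3, required in C. elegans for the sperm fate, had 9.0 RPKM at late L4 in C. elegans, above 3.42 in early L4 and 2.87 in young adults. At late L4 of C. briggsae it had 8.57 RPKM, above 1.07 in early L4 and close to 7.84 in young adults. The homeobox gene ceh-60 had 9.12 RPKM at late L4 and 7.43 in young adults of C. elegans, and 9.59 RPKM at late L4 and 6.36 in young adults of C. briggsae. It overlaps the member ets-4, an ETS-domain factor gene, by 71 bases on the opposite strand, and ets-4 had 37.9 RPKM at late L4 in C. elegans and 77.6 RPKM at late L4 in C. briggsae.

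The highest pair score, 2.31, belonged to btbz-2 (chromosome II, 8147184 to 8150030), a gene with no role assigned here. Its C. elegans libraries had 0.762, 1.68 and 1.03 RPKM in embryos, 1.36, 1.14 and 1.53 in L1, 0.997 in L2, 0.57 in L3, 1.13 in early L4, 11.8 at late L4 and 1.59 in young adults. The C. briggsae libraries had 1.18, 0.447 and 1.53 RPKM in embryos, 1.43, 1.44 and 0.878 in L1, 0.438 in L2, 0.394 in L3, 0.506 in early L4, 42.1 at late L4 and 0.491 in young adults. Both species thus had a single high library. Among the other unassigned genes, D1086.3 had 153 RPKM at late L4 in C. elegans and 55.1 RPKM at late L4 in C. briggsae, and C10A4.9 had 7.05 and 6.17 RPKM in the same order. For the other unassigned genes among the 25 highest pair scores, late L4 levels in C. elegans and C. briggsae were 34.4 and 73.7 RPKM for Y11D7A.3, 358 and 82.2 RPKM for Y54G2A.45, 94.7 and 82.9 RPKM for hpo-6, 18.8 and 126 RPKM for idpp-15, and 352 and 36.5 RPKM for C17H12.8. They were 285 and 528 RPKM for F59B1.2, 118 and 67.6 RPKM for M28.10, 696 and 362 RPKM for F25A2.1, and 117 and 58.4 RPKM for kola-5. No role is assigned to these genes here.

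Among the groups with a known function, the digestive and antimicrobial genes had the highest summed RPKM at late L4 in both species, with a broad larval level. Their summed RPKM in C. elegans was 172 in embryos, 4399 in L1, 4860 in L2, 5023 in L3, 9420 in early L4, 11430.2 at late L4 and 3503 in young adults. In C. briggsae the sum was 22.9 in embryos, 2916 in L1, 3497 in L2, 3729 in L3, 3518 in early L4, 4801 at late L4 and 1886 in young adults. The sum was highest at late L4 in both species, and in C. elegans it was already high in early L4. The aspartyl protease gene asp-6 (chromosome V, 8267511 to 8268937) reached 5128 RPKM at late L4 in C. elegans and 1487 RPKM at late L4 in C. briggsae, where L3 had 1427. The lectin gene clec-63 reached 2310 and 686 RPKM in the same order, and its neighbour clec-65, 3879 bases away on the same strand of chromosome II, 120 and 16.5 RPKM. A second aspartyl protease gene, asp-2, reached 1098 RPKM at late L4 in C. elegans and 776 RPKM at late L4 in C. briggsae, and its score was 0.27 in C. elegans and 0.46 in C. briggsae. The lysozyme gene lys-1 had 1192 RPKM at late L4 in C. elegans, with 1152 at L2, and 972 RPKM at late L4 in C. briggsae, with 1000 in early L4.

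Genes of the brush border and of energy metabolism were flatter still. The gene act-5, which encodes the actin of intestinal microvilli, had 1590 RPKM at late L4 and 1597 in early L4 of C. elegans, and 1321 RPKM at late L4 and 1301 at L3 of C. briggsae. The microvillar linker gene erm-1 had 208 and 285 RPKM at late L4 in C. elegans and C. briggsae, and dsc-4, which encodes a subunit of the microsomal triglyceride transfer protein, 106 and 83.6 RPKM. Of the 12 mitochondrial and metabolic enzymes, 3 had a pair score above 0, and the median score was 0.00 in both species, so as a group they had no late L4 peak. Among them atp-2, the gene of the ATP synthase beta subunit, had 2323 RPKM at late L4 in C. elegans and 3029 RPKM at late L4 in C. briggsae, with 3103 at L3. Of the 5 transporter and channel genes, the degenerin family member del-6 had scores of 0.08 in C. elegans and 0.68 in C. briggsae, with 163 RPKM at late L4 in C. briggsae. The glutamate transporter gene glt-1 had 147 and 103 RPKM in the same order.

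**Figure D4:**
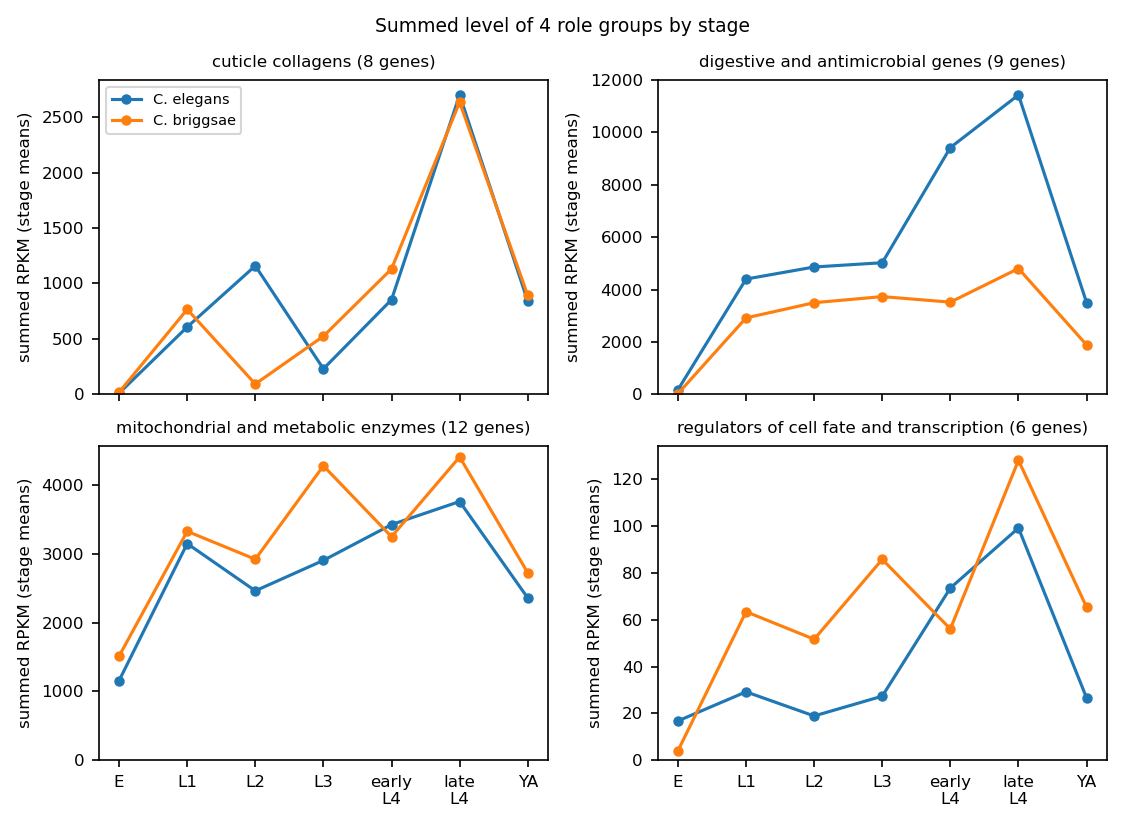
Summed RPKM of 4 role groups at each stage, as sums of stage means without error, in C. elegans (blue) and C. briggsae (orange). The collagen sums are highest at late L4 (2702 RPKM in C. elegans and 2636 in C. briggsae). Their next highest stages are L2 in C. elegans (1159) and early L4 in C. briggsae (1131). Most of the C. briggsae late L4 sum comes from col-176 (1568 RPKM) and col-98 (977 RPKM). The enzyme sums (3764 and 4413) exceed the next highest stage by little.

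Levels before late L4 can be tested for L1 against embryos, where both species had 2 cultures. In C. elegans, L1 was higher than embryos in 67 of 92 members tested and lower in 4, whereas of all 15277 genes tested 70.8% were called, 28.3% higher and 42.6% lower. In C. briggsae, L1 was higher in 76 of 95 members tested and lower in 6, whereas of all 11891 genes tested 74.3% were called, 41.5% higher and 32.8% lower. The C. elegans genes tested included those without C. briggsae values of their own, whereas the C. briggsae ones were ortholog pairs only. The 2 backgrounds are therefore over unlike sets of genes. After quantile normalization the C. briggsae split of all genes turned to 4203 higher and 5094 lower, against 4929 and 3906 as deposited, with 72 members higher and 7 lower. The median difference of the members was 1.62 in C. elegans (-0.33 over all genes) and 2.84 in C. briggsae (0.14 over all genes). The rule bars genes whose highest level is in embryos, so part of this follows from the choice. Of 570 other pairs that stood higher at late L4 than in embryos and L1 of both species, 538 were tested in C. elegans and 547 in C. briggsae, and 48.7% and 68.9% of those tested were higher in L1. The 8 members not tested in C. elegans and 5 in C. briggsae did not reach 1 RPKM in at least 2 cultures.

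All 9 digestive and antimicrobial genes were higher in L1 than in embryos in both species, and so were act-5 and dsc-4. The third gene of the brush border group, erm-1, was higher in C. briggsae by 0.64 ± 0.14 (limma adjusted p = 0.0078), and its difference in C. elegans was 0.26 ± 0.20 (limma adjusted p = 0.283). C. elegans asp-6 had 1855, 2442 and 1408 RPKM in L1, against 27.7, 60.4 and 72.8 RPKM in embryos. C. briggsae asp-6 had 1202, 1128 and 1234 RPKM in L1, against 14.4, 17.9 and 0.239 RPKM in embryos A1, A2 and B. The L1 and embryo libraries did not overlap, but the C. briggsae embryo cultures stood far apart, as they did by at least 2-fold in 6 of these 9 genes. The difference was 8.03 ± 1.17 on the log2 scale in C. briggsae (SE, limma adjusted p = 0.00177), 9.92 without embryo culture A and 6.14 without embryo culture B. For clec-63 it was 5.47 ± 0.32 in C. elegans (limma adjusted p = 1.52e-05) and 7.67 ± 0.53 in C. briggsae (limma adjusted p = 0.000201).

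The collagens split. The largest L1 increase belonged to col-98, which had 626, 580 and 492 RPKM in L1, against 5.05, 2.36 and 1.77 RPKM in embryos of C. elegans. The difference was 7.27 ± 0.28 (limma adjusted p = 4.88e-06) in C. elegans and 8.44 ± 0.23 (limma adjusted p = 9.29e-05) in C. briggsae, with no overlap of the libraries in either. For col-176 it was 7.53 ± 0.28 in C. briggsae (limma adjusted p = 9.29e-05). Its C. briggsae embryo libraries lay below 1 RPKM, so there it passed the filter only through L1. By contrast bli-6, col-38 and col-71 were lower in L1 than in embryos of C. briggsae, with differences of -1.28 ± 0.27, -1.13 ± 0.27 and -1.01 ± 0.19 (limma adjusted p = 0.00766, 0.011 and 0.00508). These 3 calls were lost without either C. briggsae L1 culture (limma adjusted p = 0.0667 to 0.142). In C. elegans only 3 of the 8 collagens passed the filter on low values, and col-71 had a difference of -0.53 ± 0.23 (limma adjusted p = 0.0753).

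Among the regulators, lin-29 was higher in L1 by 0.60 ± 0.19 in C. elegans (limma adjusted p = 0.0231) and by 2.1 ± 0.28 in C. briggsae (limma adjusted p = 0.00129). The factor gene dmd-8 was higher by 1.07 ± 0.27 and 2.00 ± 0.21 in the same order (limma adjusted p = 0.00922 and 0.000547). Both genes lay below 1 RPKM in every embryo library of both species and passed the filter only through L1. Their direction was thus partly set by the filter. The C. elegans call of lin-29 was lost without either embryo culture (limma adjusted p = 0.242 and 0.086) and with the culture as a block (0.06), and that of dmd-8 without embryo culture B (0.0579). For fkh-6 the differences were -0.21 ± 0.25 in C. elegans and 0.45 ± 0.16 in C. briggsae (limma adjusted p = 0.46 and 0.0513), and the C. elegans estimate was 0.05 without embryo culture B. Of the enzymes, 8 of 12 were higher in L1 in C. elegans and none lower, and 9 were higher and 1 lower in C. briggsae. The unassigned F25A2.1 was higher in L1 of C. elegans by 6.95 ± 0.24 (limma adjusted p = 3.75e-06), and grsp-4 by 5.16 ± 0.40 (limma adjusted p = 3.93e-05). The unassigned F43C1.5 was lower in L1 of C. briggsae (-2.01 ± 0.29, limma adjusted p = 0.00163) and higher in L1 of C. elegans (1.08 ± 0.33, limma adjusted p = 0.0192). That C. elegans call was lost without L1 culture B (limma adjusted p = 0.0589) or embryo culture A (0.135). In C. elegans the 4 members lower in L1 were F56B3.2 (-2.85 ± 0.24), Y11D7A.3 (-2.33 ± 0.32), rhy-1 (-2.25 ± 0.31), which regulates the hypoxia factor HIF-1, and M28.8 (-1.03 ± 0.28). The call of M28.8 was lost after quantile normalization (limma adjusted p = 0.0726), without L1 culture A (0.0786) and without embryo culture B (0.0604). Without C. briggsae L1 culture A, 51 members were higher in that species and 1 lower, and without culture B 48 were higher and 2 lower.

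**Figure D5:**
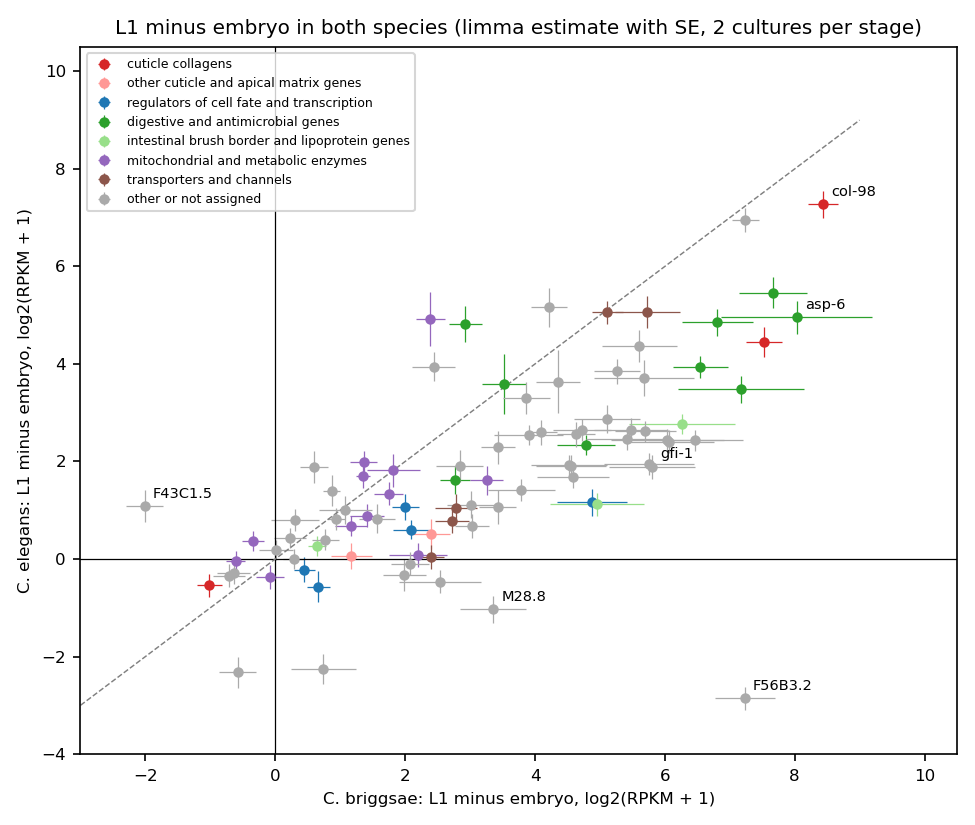
Difference L1 minus embryo on the log2(RPKM + 1) scale in C. elegans (vertical axis) and C. briggsae (horizontal axis) for the 89 members tested in both, with SE bars from limma over 2 cultures per stage. Colours are role groups and the dashed line marks equal differences. Of the 89 points 70 lie below it, and F56B3.2 lies farthest from it. The share of all pairs below it was not counted. The species difference had a median of -1.24 over the 98 members tested and -0.29 over all 12603 pairs. Over the 559 tested pairs outside the 100 that stood higher at late L4 than in embryos and L1, the median was -1.10.

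The change between embryo and L1 was itself compared between the species as an interaction over the 8 cultures. The signed difference L1 minus embryo was lower in C. elegans than in C. briggsae in 49 of 98 members tested and higher in 8, whereas of all 12603 pairs tested 50% were called, 32.8% lower and 17.1% higher. Of the 559 tested among the 570 other pairs higher at late L4 than in embryos and L1, 46% were lower in C. elegans, so the members' share lies near that of like genes. The difference was largest for F56B3.2, at -10.08 ± 0.55 (limma adjusted p = 4.87e-05). In C. elegans this gene had 3.05, 2.79 and 2.88 RPKM in L1, against 26, 28.1 and 27.4 RPKM in embryos. In C. briggsae it had 317, 267 and 247 RPKM in L1, against 2.24, 1.51 and 0.128 RPKM in embryos. The 2 species thus ran opposite ways with no overlap, although both had their highest level at late L4 (30.6 RPKM in C. elegans and 845 RPKM in C. briggsae). The C. elegans late L4 level came from 1 library and lay close to the embryo values.

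Other members whose signed difference was lower in C. elegans were M28.8 (-4.39 ± 0.64), F59B1.2 (-4.04 ± 0.86), gfi-1 (-3.91 ± 0.78), dsc-4 (-3.84 ± 0.85), ets-4 (-3.71 ± 0.66) and act-5 (-3.50 ± 0.96). The C. briggsae values of gfi-1 and its neighbour bcf-1 differed by at most 0.20 on the log2 scale in any library, so their C. briggsae reads may be shared and the split between them is uncertain. Of these, act-5 lost its call without C. elegans embryo culture A (limma adjusted p = 0.0579) or B (0.0612) or C. briggsae L1 culture A (0.0534). Members whose signed difference was higher in C. elegans included F43C1.5 (3.09 ± 0.47, limma adjusted p = 0.00152), which was higher in L1 of C. elegans and lower in L1 of C. briggsae, the glucuronosyltransferase family gene ugt-44 (2.53 ± 0.74, 0.0225), clec-65 (1.89 ± 0.51, 0.0158) and K03B8.8 (1.64 ± 0.38, 0.00866). The call of ugt-44 was lost without either C. elegans embryo culture or either C. briggsae L1 culture (limma adjusted p = 0.0533 to 0.074), and that of clec-65 without C. elegans embryo culture A (0.0555) or C. briggsae L1 culture A (0.053). The count of 8 fell to 3 with a pseudocount of 0.1 or without C. elegans embryo culture A. It fell to 4 without C. briggsae L1 culture A, and to 5 without C. briggsae L1 culture B or C. elegans L1 culture A. After quantile normalization, which shifts the median of all pairs by 0.45, 28 members were lower in C. elegans and 11 higher, and of all pairs 2795 were lower and 3587 higher, against 4140 and 2159 as deposited.

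Young adults were compared with early L4 across both species, with the species as the replicates of a stage. Both stages lie near or below late L4 by the rule, which does not set which of them is higher. Young adults were higher in 1 of the 100 members and lower in 10, whereas of all 12945 pairs 17.6% were called, 10.6% higher and 6.99% lower, and the median difference was -0.81 for members and -0.25 for all pairs. The share of lower members thus lies near the background. Among the 570 other pairs higher at late L4 than in embryos and L1, 22.3% were lower. Their choice set no bound on early L4 or young adults, so they are not a like set for this contrast. The gene that was higher was C10A4.9, with 1.53 RPKM in young adults and 0.23 RPKM in early L4 of C. elegans, and 4.46 RPKM in young adults and 0.0851 RPKM in early L4 of C. briggsae. Its difference was 1.68 ± 0.36 (limma adjusted p = 0.0137), and the call was lost without the C. briggsae young adult library (0.0515), the C. elegans early L4 library (0.0507) or the C. briggsae early L4 library (0.12).

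The largest decrease was that of col-176, with 2.55 RPKM in young adults and 145 RPKM in early L4 of C. elegans, and 0.818 RPKM in young adults and 411 RPKM in early L4 of C. briggsae. The difference was -6.59 ± 1.38 (limma adjusted p = 0.0132), and the call was lost without any one of the 4 libraries (limma adjusted p = 0.0509 to 0.108). Lower as well were ugt-44 (-3.43 ± 0.74), ctsa-4.1, named for a cathepsin A-like protease (-3.10 ± 0.65), tag-244 (-2.34 ± 0.60), its neighbour hpo-6 (-2.33 ± 0.37) and irg-7, a gene of the infection response (-2.06 ± 0.48). The calls of ugt-44 and tag-244 were also lost without any one of the 4 libraries, and those of ctsa-4.1 and irg-7 without either C. elegans library. The call of hpo-6 held without each of the 4 in turn. This comparison rests on 1 library per stage and species: the count of lower members was 2 without the C. elegans young adult library, 1 without the C. elegans early L4 library, 3 without the C. briggsae early L4 library and 8 without the C. briggsae young adult library.

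Lists of genes known to act around the last molt and in the germline were set beside the members over the same interval. In young adults minus early L4, 10 of 10 major sperm protein and related genes tested and 24 of 25 oocyte and eggshell genes were higher. No member belonged to either list. Of the 46 major sperm protein and related genes in the table, 10 had C. briggsae values of their own. None of these had 5 RPKM at late L4 in both species, so the rule barred that whole list. Only 6 oocyte and eggshell genes reached that level, too few for their absence to carry meaning. Of 35 molting genes tested 20 were lower and none higher, of 70 hedgehog-related and patched-related genes 24 were lower and none higher, and of 145 collagens 29 were lower and 19 higher. From late L4 to young adult, 8.28% of all pairs were called, 6.6% higher and 1.68% lower in young adults. There 9 of 10 major sperm protein and related genes, 24 of 25 oocyte and eggshell genes and 9 of 28 other sperm genes were higher, and 12 of 35 molting genes were lower. For late L4 minus early L4 no gene of 12945 passed the threshold with limma (0%), and 251 had an unadjusted p under 0.05. Estimates for list genes outside the 100 included the collagen genes col-175 (4.24 ± 0.99), col-138 (4.14 ± 0.97) and col-49 (3.25 ± 1.08), the sperm genes cpb-1 (3.13 ± 0.76) and fog-1 (2.28 ± 0.47), and lin-41 (-2.44 ± 0.52), a heterochronic gene. The lin-29 cofactor gene mab-10 had 1.72 ± 0.89, and lin-46, of the same heterochronic list, -1.48 ± 0.68. On the vulval list lin-11 and aff-1 had 1.68 ± 0.65 and 1.63 ± 0.74, and bed-3, also on the molting list, -1.46 ± 1.03. The medians of the heterochronic and vulval lists outside the 100 were -0.75 and -0.04. Other negative estimates were those of the molting gene nas-38 (-1.87 ± 1.52), the cuticlin gene cut-2 (-1.66 ± 2.00) and the patched-related ptr-22 (-2.01 ± 1.18). The medians of their lists were -0.60, -0.44 and -0.71 in the same order, and that of the collagens outside the 100 was 0.07. None of these genes passed the adjustment (limma adjusted p = 0.971 to 1).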

How the data were processed

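The deposited values are RPKM per gene and library, computed by the authors, and the submitters' processing notes name BWA 0.5.7. For the build, annotation, counting rule and ortholog source, the sources used here give nothing, and C. briggsae values stand under C. elegans IDs. RPKM hides read depth, so precision at low values is unknown. Coordinates are from Ensembl 115 (WBcel235), matched by sequence name (98 of 100 members). Libraries were averaged per stage on log2(RPKM + 1), which understates changes of low genes. Tests used limma 3.58.1 in R 4.3.3 (trend, Benjamini-Hochberg over all genes tested, threshold 0.05) on genes reaching 1 RPKM in 2 or more samples, after averaging a culture's libraries. L1 minus embryo used cultures A and B; young adult minus early L4 used 14 samples in a model of species and stage. Cultures A and B are separate time courses per the growth protocol, so L1 and embryos of a culture could be paired. The main tests did not pair them, and counts with the culture as a block are given below. The deviations between cultures A and B correlated at -0.01 over 15277 genes in C. elegans and 0.20 over 11891 in C. briggsae. Named genes are the 25 highest pair scores, the 4 largest called changes per direction and comparison, the 4 highest scores and the 3 largest changes per list, and 4 genes on each side of the limit. Members, lists and tests were chosen with earlier results of these data known. Python 3.11.15, pandas 2.3.3 and matplotlib 3.10.9 were used.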

Additional observations from a re-analysis of the deposited data

Results flagged for a closer look

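The change between embryo and L1 differed between C. elegans and C. briggsae, by limma's interaction test, in 57 of 98 members, against 50% of all pairs tested. The named ones, as C. elegans minus C. briggsae on the log2 scale, were F43C1.5 at 3.09, ugt-44 at 2.53, clec-65 at 1.89 and K03B8.8 at 1.64, and on the other side gfi-1 at -3.91, F59B1.2 at -4.04, M28.8 at -4.39 and F56B3.2 at -10.08. F56B3.2 and M28.8 ran opposite ways, lower in L1 than in embryos of C. elegans and higher in L1 of C. briggsae, and F43C1.5 ran opposite ways with the species exchanged. The C. elegans calls of M28.8 and F43C1.5 were each lost under some alternatives (limma adjusted p up to 0.0786 and 0.135). In C. briggsae embryos, culture A held more than culture B of several of these genes: gfi-1 had 3.35 and 3.15 RPKM in A and 0.0363 in B, and F59B1.2 had 5.03 and 7.12 RPKM in A and 0.426 in B. Without C. briggsae embryo culture B the difference was -2.89 for both gfi-1 and F59B1.2, and without culture A it was -4.93 and -5.19; the part of the embryo cultures in the result was not tested further.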

How the results depend on the processing

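Among the named members, the sign of the uncalled C. elegans L1 difference of fkh-6 reversed when a culture was left out (-0.48 to 0.053). Quantile normalization gave 103 pairs with a score above 0 in place of 68, shared 75 of the 100 members, left 28 members in place of 49 with a lower L1 difference in C. elegans, and turned 2 splits over all genes: 4203 higher and 5094 lower in C. briggsae L1, against 4929 and 3906, and 3587 and 2795 in the species difference, against 2159 and 4140; the cause was not tested. A pseudocount of 0.1 kept all 100 members and left 3 in place of 8 with a higher difference in C. elegans. Admitting pairs from 1 RPKM at late L4 shared 83 members. Leaving out libraries shared 92 to 97 members, with 67 to 73 scores above 0, 9 of at least 0.5 and 5 of at least 1. Leaving out a culture, or C. elegans embryo library A1 (added after seeing the data), the L1 comparison called 7839 to 11470 genes, 56 to 66 members higher and 3 to 6 lower in C. elegans. In C. briggsae it called 5122 to 8690 genes, 48 to 78 members higher and 1 to 6 lower. The species difference called 4836 to 6731 pairs, 3 to 9 members higher and 35 to 52 lower. Young adult minus early L4 called 492 to 1891 pairs, 0 to 1 members higher and 1 to 8 lower. With the culture as a replicate block, L1 minus embryo called 10769 genes (64 members higher, 4 lower) in C. elegans, 9053 (77 and 6) in C. briggsae and 6066 (6 and 49) in the species difference, and no count moved by over 1.5 times. Without a species term, young adult minus early L4 called 1052 pairs in place of 2275 and 3 members lower in place of 10. Among named genes, 9 of 120 values lost their call for C. elegans, 6 of 91 for C. briggsae, 12 of 143 for the species difference and 22 of 56 for young adult minus early L4. A call was gained by col-71 in C. elegans after quantile normalization (limma adjusted p = 0.0364) and by fkh-6 in C. briggsae without the filter (0.0421). Depth is unknown, so no counting error can be given for low levels.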
